A study of Mus musculus with 6 samples.

Results

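A single RNA-seq library of mouse embryonic fibroblasts labelled as a homozygous Smad3 knockout was set against a single library labelled wild type (WT), 2 of the 6 libraries of the study. Genes entered the comparison when they reached at least 1 CPM (the count scaled to a common library size) in either of these 2 libraries, which left 14081 of the 25793 genes in the count files. The 6 libraries, 1 per genotype, came from the Smad3 homozygote, the double heterozygote (1 mutant copy each of Smad3 and Sptbn1, the gene of the membrane-skeleton protein beta-II spectrin), the Smad3 heterozygote, the Sptbn1 homozygote, the Sptbn1 heterozygote and WT. By the growth protocol all were primary fibroblasts from E13.5 embryos of matings between Sptbn1+/- and Smad3+/- mice. They were replated after confluence and grown in DMEM/F12 medium with 10% fetal bovine serum, and no treatment is recorded. A direct cross of Sptbn1+/- with Smad3+/- mice gives no homozygote of either gene. The protocol's wording thus leaves the origin of the homozygous libraries unclear. The sources used here do not give the deleted part of Smad3, the number of embryos behind each library or the strain. Since each genotype has 1 library, no difference below has a replicate check. Each is one between libraries and not between genotypes, and no p-value is given.

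Smad3 is a transcription factor of the TGF-beta pathway. TGF-beta and activin ligands bring together pairs of receptor kinases, which phosphorylate Smad2 and Smad3; these join Smad4, enter the nucleus and switch target genes on or off, while Smad7 and Smad6 feed back to restrain the receptors. In fibroblasts the pathway is known for raising collagen, fibronectin and contractile protein genes, and in many cell types for slowing the cell cycle and restraining inflammation. Embryonic fibroblast cultures are mixed mesenchymal cells that usually hold some macrophages and a few cells of other tissues.

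Levels are CPM after scaling of the library size with the TMM method, and each fold is a ratio of such levels, with an exact 95% interval in parentheses that covers counting error only. The words higher and lower are kept for genes with the entire interval past 1.5-fold. Where a library had 0 counts, 3 counts stood in for them as a floor. The fold is then a bound from that floor, marked by the words at least, and leaves out counting error. The exact interval can reach nearer to 1-fold, as for Marco, with 181-fold beside the 224-fold from the floor. The counts on genes came to 21329087 in the library labelled Smad3 homozygote and 11407587 in WT, so 1 read was worth 0.0444 CPM in the library labelled Smad3 homozygote and 0.0885 CPM in WT. The make-up of the libraries differed before any gene was compared. Reads on no gene were 12.2% of all records in the library labelled Smad3 homozygote, 11.9% in the double heterozygote, 30.9 to 31.5% in the other 3 libraries (the single heterozygotes and the Sptbn1 homozygote) and 32.6% in WT. Reads that fit several genes were 0.0251% in the library labelled Smad3 homozygote and 0.827% in the double heterozygote. They were 0.363 to 0.413% in the other 3 libraries and 0.395% in WT. The libraries with the lowest no-gene shares thus lay at opposite ends here. Of 5 X-linked and Y-linked sex markers 0 were higher and 1 lower, beside 25.4% of all compared genes called higher and 25.4% called lower. X-linked Xist had 0.311 CPM in the library labelled Smad3 homozygote, 16.3 in WT and 2747 in the Smad3 heterozygote. Y-linked Ddx3y had 188, 127 and 0.388 CPM in the same order. The Smad3 heterozygote thus differed in sex markers from both compared libraries. It enters the ranges of the other 3 libraries and the settings with it in place of WT.

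**Figure D1:**
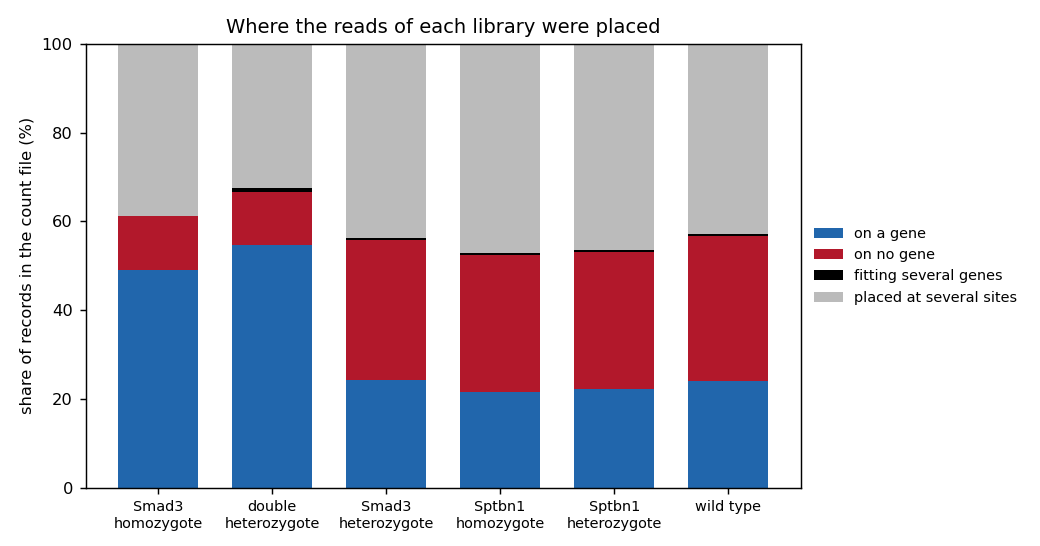
Shares of all records in each deposited file (percent, vertical axis) that were on a gene, on no gene, on several genes or placed at several sites, for the 6 libraries. Reads on no gene were 12.2% in the library labelled Smad3 homozygote and 32.6% in WT, with the double heterozygote at 11.9% and the other 3 libraries at 30.9 to 31.5%.

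Transcript length, base composition and sequence shared with other genes moved with the ratio. The annotated genes were parted into 4 groups by transcript length, which from the shortest to the longest held 2540, 3188, 3688 and 3976 compared genes. Their median log2 ratios were 0.47, 0.34, 0.20 and -0.28. Over 4 such groups from the lowest to the highest GC content, of 3287 to 3436 compared genes each, the medians were -0.07, 0.01, 0.22 and 0.49. The 473 genes with 25% or more of their 50-base words found in transcripts of a gene at another place had a median log2 ratio of 0.65, and the 10594 genes with under 1% had one of 0.10. In the 690 genes for which no transcript of the reference annotation was matched, the median was -1.81. The part of library preparation, counting and these properties in the gene differences was not tested, and cannot be told apart from the genotype in 2 libraries.

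The library did not show a loss of Smad3 RNA. Smad3 had 106 CPM in the library labelled Smad3 homozygote, 203 in the double heterozygote, 57.2 to 79.5 in the other 3 libraries and 53.3 in WT. The level in the library labelled Smad3 homozygote was 1.99-fold (1.82 to 2.18) that in WT and below that in the double heterozygote. A count summed over all exons can miss the loss of some, and a mislabelled sample was not tested, so the direction of each difference below belongs to the library labelled Smad3 homozygote and not to a proven loss of Smad3. Sptbn1, listed as Spnb2, had 1022 CPM in the library labelled Smad3 homozygote, 695 in the double heterozygote, 771 to 1556 in the other 3 libraries and 1419 in WT, a difference from WT within the 1.5-fold limit. Of the other receptor-activated Smads, Smad2 had 82.4 CPM in the library labelled Smad3 homozygote and 77.8 CPM in WT, and the shared partner Smad4 had 124 CPM in the library labelled Smad3 homozygote and 97.1 CPM in WT. Neither was called. Both inhibitory Smads were called higher. Smad7 had 74.8 CPM in the library labelled Smad3 homozygote, 29 in the double heterozygote, 37.3 to 56.3 in the other 3 libraries and 38.6 in WT, 1.94-fold (1.75 to 2.16) higher than in WT. Smad6 had 33.9 CPM in the library labelled Smad3 homozygote, 18.4 in the double heterozygote, 6.63 to 11.6 in the other 3 libraries and 5.84 in WT, 5.81-fold (4.52 to 7.59) higher. Smad9, a Smad of the BMP branch, was 3.91-fold (2.86 to 5.45) higher, and the anchor protein Zfyve9 (SARA), which presents Smad2 and Smad3 to the receptors, was 4.3-fold (3.15 to 5.99) higher. Pmepa1, a TGF-beta-induced membrane protein that sequesters Smads, was the only member called lower, at 132 CPM in the library labelled Smad3 homozygote, 157 in the double heterozygote, 389 to 569.9 in the other 3 libraries and 586 in WT. Of 20 SMAD proteins and regulators, 6 were thus higher and 1 lower. Under the widest intervals used, which take in the spread over all 6 libraries, 0 were higher and 0 lower.

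Across all 14081 genes, 3578 were higher and 3579 lower in the library labelled Smad3 homozygote than in WT, with a median log2 ratio of 0.10 and a Spearman correlation of 0.83 between the levels of the 2 libraries over genes, which do not count as replicates. These calls are 25.4% of genes in each direction, the share to set beside every list count below. The split depends on the library size used. Scaled by all uniquely placed reads, those on no gene included, 8093 genes were higher and 1484 lower, of 13225 that then reached 1 CPM. When each interval was widened by the spread over all 6 libraries taken as 1 group (named widened intervals from here on), 246 were higher and 1176 lower. Large differences were mostly downward. The whole interval lay beyond 4-fold for 438 higher and 1416 lower genes, and beyond 16-fold for 58 higher and 389 lower genes. A count of 0 was found for 289 of the compared genes in the library labelled Smad3 homozygote and for 38 in WT. The library labelled Smad3 homozygote was the highest of the 6 for 34.0% of genes and the lowest for 29.0%. Set against the double heterozygote, it was beyond 1.5-fold higher for 20.7% and lower for 22.7% of the same genes. The double heterozygote has a similarly low no-gene share but a higher share of reads on several genes. That comparison shares the Smad3 homozygote library with the one against WT, so its values stand beside the others and are no repeat of them.

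**Figure D2:**
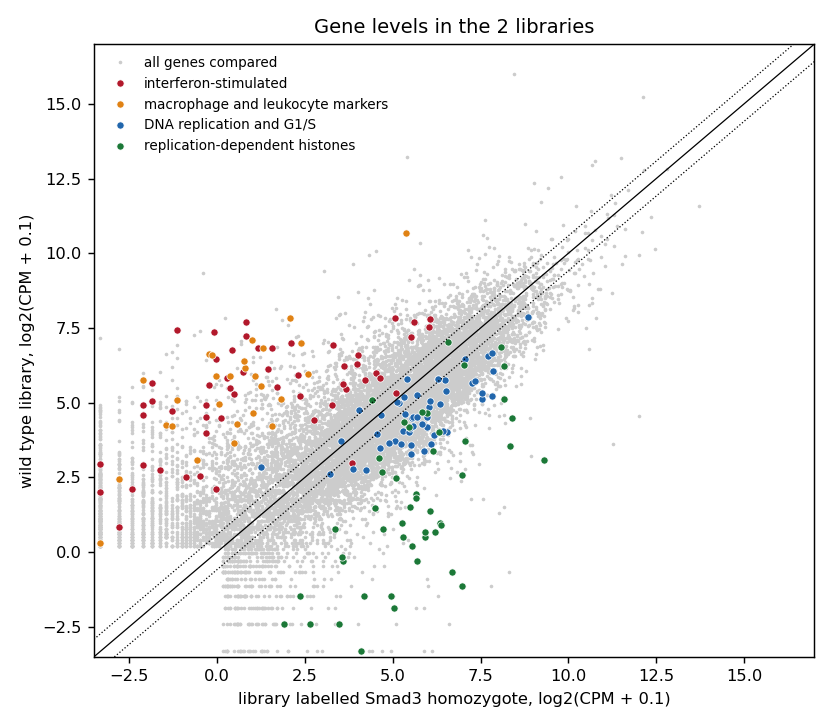
Level of each of the 14081 genes in the library labelled Smad3 homozygote (horizontal axis) and in WT (vertical axis), both as log2(CPM + 0.1), with 4 gene lists in colour, the line of equal levels solid and the 1.5-fold limits dotted. Higher and lower genes are nearly equal in number (3578 and 3579), and the interferon-stimulated and macrophage genes lie mostly far above the solid line, the histone genes mostly below it.

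The genes farthest above WT, with small RNA genes set aside, were led by histone genes and a few housekeeping genes. Nqo1, a quinone reductase of the antioxidant response, had 191 CPM in the library labelled Smad3 homozygote, 11.1 in the double heterozygote, 4.33 to 5.3 in the other 3 libraries and 3.36 in WT, 56.7-fold (41.3 to 80.3) higher than in WT. Under 1% of the sequence of Nqo1 is shared with other genes. The alpha-tubulin gene Tuba1b had 261 CPM in the library labelled Smad3 homozygote, 0.796 in the double heterozygote, 0.0969 to 6.18 in the other 3 libraries and 2.39 in WT. The nuclear protein gene Ptma had 485 CPM in the library labelled Smad3 homozygote, 62.4 in the double heterozygote, 6.57 to 8.14 in the other 3 libraries and 9.29 in WT. Their folds were 109-fold (75.1 to 166) and 52.2-fold (43.1 to 63.8), but 74.3% of the sequence of Tuba1b and 20.4% of that of Ptma is shared. Reads placed at several sites were tallied apart from genes, so reads from the shared parts can be missing from these levels. Stmn1 (stathmin, a microtubule regulator) and H2afz (a histone variant) had 17.2 and 25.9 CPM in the library labelled Smad3 homozygote and 0 counts in WT, at least 64.9-fold and at least 97.4-fold higher, with 17.9% and 35.4% of their sequence shared.

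Many of the genes farthest below WT are known from immune cells, and several had 0 counts. The chemokine gene Cxcl11 had 0 CPM in the library labelled Smad3 homozygote, 3.6 in the double heterozygote, 1.65 to 13.6 in the other 3 libraries and 24.5 in WT, at least 184-fold lower than in WT. Marco, a scavenger receptor of macrophages, had 0 CPM in the library labelled Smad3 homozygote, 30.4 in the double heterozygote, 18.3 to 43.9 in the other 3 libraries and 29.9 in WT, at least 224-fold lower than in WT. Siglec1, a sialic acid receptor of macrophages, was 372-fold (171 to 1017) lower and Cybb, the heme subunit of the phagocyte oxidase, 269.7-fold (160.4 to 494) lower. Genes with other roles were among them. Apod, a lipid carrier, had 0.533 CPM in the library labelled Smad3 homozygote, 53.6 in the double heterozygote, 16.8 to 142 in the other 3 libraries and 155 in WT. Spon1, a secreted matrix protein, had 0.0888 CPM in the library labelled Smad3 homozygote, 2.39 in the double heterozygote, 15.1 to 52.1 in the other 3 libraries and 46.4 in WT. Their folds were 291-fold (166 to 564) and 523-fold (144 to 4328) lower. The double heterozygote was below WT for both genes as well.

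**Figure D3:**
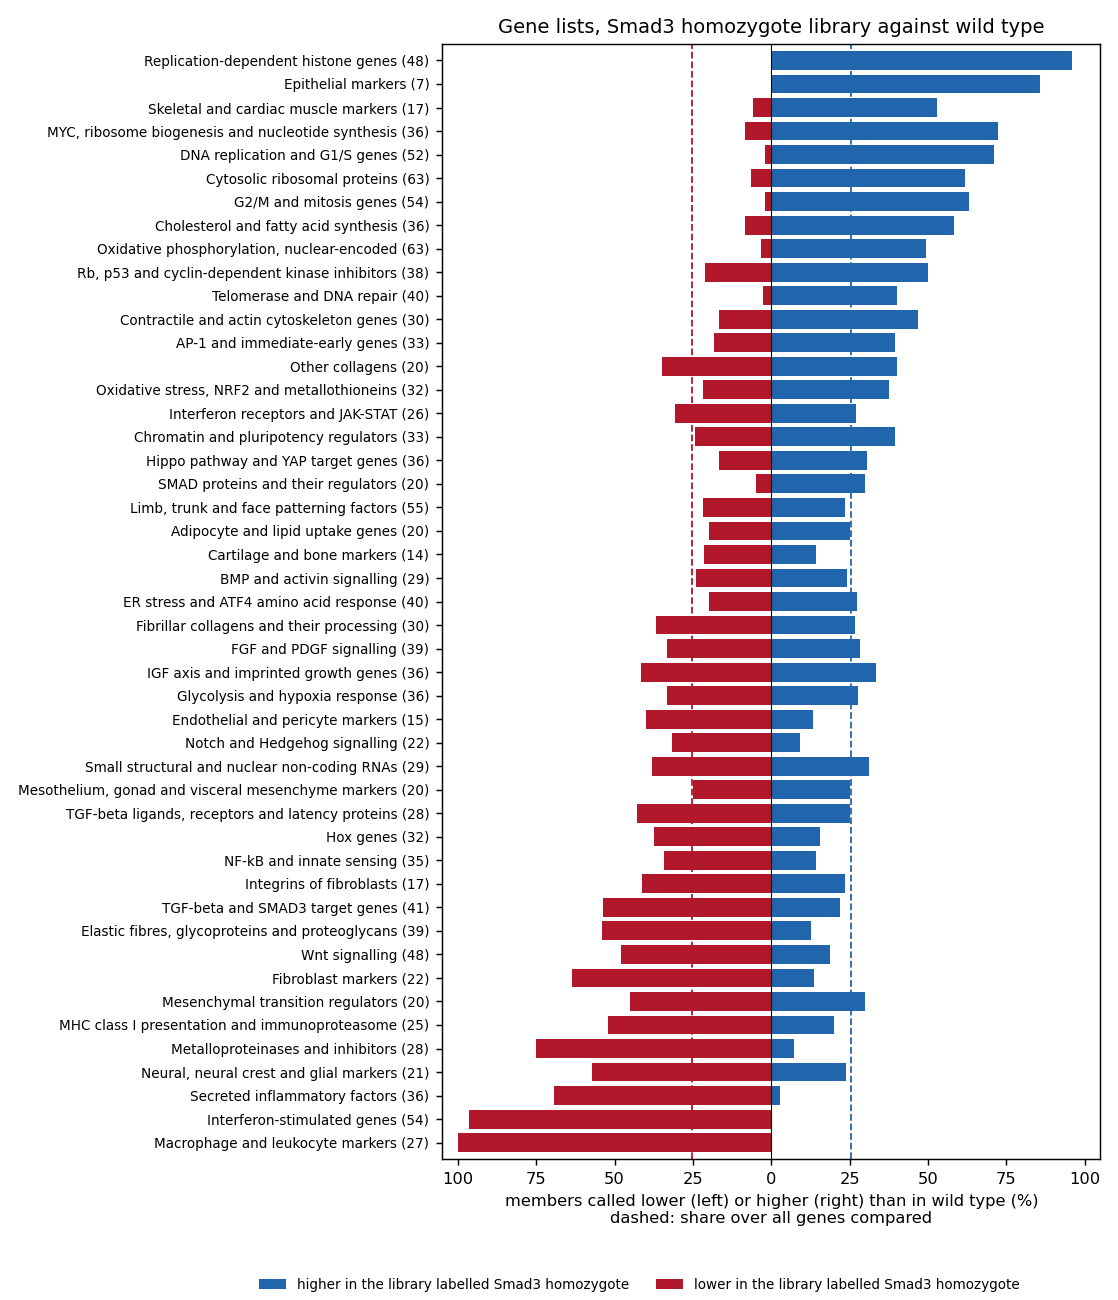
Percent of the measured members of each gene list called higher (right of 0) or lower (left of 0) in the library labelled Smad3 homozygote than in WT, with dashed lines at the share over all 14081 genes. Interferon-stimulated genes and macrophage markers are almost wholly lower (52 of 54 and 27 of 27), histone genes almost wholly higher (46 of 48).

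Interferon-stimulated genes encode antiviral proteins and sensors that interferons switch on. Of 54 measured, 0 were higher and 52 lower, with a median log2 ratio of -4.70 beside 0.10 over all genes. The library labelled Smad3 homozygote was the lowest of the 6 for 51 of them, and 52 were also lower when it was set against the double heterozygote. Promoters of 2 members are shown, since most genes of this list carry the element that the interferon-activated complex binds. The sequences are the 250 bases before the start of each gene in RefSeq (build GRCm38.p6, another build than that of the count files), 5′ to 3′ on the gene's strand, with the element (GAAA, any 2 bases, GAAA) or its reverse complement in capitals. Oas3 lies on the minus strand, with its window at chr5:120777660-120777909, and Rsad2 on the minus strand with its window at chr12:26456453-26456702.
Oas3: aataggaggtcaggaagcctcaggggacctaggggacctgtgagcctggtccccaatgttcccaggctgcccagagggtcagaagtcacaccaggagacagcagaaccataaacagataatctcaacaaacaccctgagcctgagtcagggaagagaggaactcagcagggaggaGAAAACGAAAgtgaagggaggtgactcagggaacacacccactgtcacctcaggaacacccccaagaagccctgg
Rsad2: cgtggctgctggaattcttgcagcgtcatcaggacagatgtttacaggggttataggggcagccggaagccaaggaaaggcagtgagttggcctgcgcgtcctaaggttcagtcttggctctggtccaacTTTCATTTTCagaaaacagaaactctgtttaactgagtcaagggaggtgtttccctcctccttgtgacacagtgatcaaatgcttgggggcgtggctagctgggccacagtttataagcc

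Searched on both strands in windows of 250 bases before to 50 after the start, the element was present in 23 of the 39 interferon-stimulated genes with a window (59.0%) and in 3.76% of the 10553 compared genes with one. A match is a description of the sequence and not a shown binding site. Oas3, an enzyme that makes the activator of RNase L from double-stranded RNA, had 0.133 CPM in the library labelled Smad3 homozygote, 1.72 in the double heterozygote, 6.77 to 24.4 in the other 3 libraries and 29.9 in WT, 224-fold (76.1 to 1094) lower than in WT from 3 counts. Rsad2 (viperin), an antiviral enzyme, had 0.133 CPM in the library labelled Smad3 homozygote, 11.5 in the double heterozygote, 2.36 to 6.43 in the other 3 libraries and 7.43 in WT, 55.8-fold (18.4 to 276) lower from 3 counts. In both genes the level was below every other library, and for Oas3 the double heterozygote was the second lowest. Mx1 and Mx2, dynamin-like antiviral GTPases, had 0 counts in the library labelled Smad3 homozygote, against 3.98 and 7.7 CPM in WT, at least 29.9-fold and at least 57.8-fold lower. Zbp1, a sensor of unusual nucleic acids, had 0.178 CPM in the library labelled Smad3 homozygote and 51 CPM in WT.

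Some regulators of the response were called lower. Stat2 and Irf9, parts of a complex that carries the type I signal to the genome, were 6.79-fold (6.26 to 7.38) and 2.93-fold (2.58 to 3.33) lower than in WT. Irf7, the factor that amplifies type I interferon, had 1.69 CPM in the library labelled Smad3 homozygote, 64.8 in the double heterozygote, 40.7 to 114 in the other 3 libraries and 150.1 in WT, 88.9-fold (64.5 to 126) lower. The receptor chains Ifnar1 and Ifngr1 were not called, at 128 against 106 CPM for Ifnar1 and 41.1 against 40.0 CPM for Ifngr1 in the library labelled Smad3 homozygote against WT, while Ifnar2 was 2.4-fold (2.19 to 2.62) lower. Of the 26 receptors and JAK-STAT genes 7 were higher and 8 lower, near the 25.4% of all compared genes in each direction. Those higher included the feedback inhibitors Socs1 (2.92-fold), Socs2 (3.09-fold) and Socs6 (4.03-fold) and the cytokine-responsive factors Stat5a (2.37-fold) and Stat5b (2.41-fold). The members of the interferon list not called were Ifit2, an antiviral RNA-binding protein, and Ifi35, named after its value was seen, at 33.9 against 40.3 CPM for Ifit2 and 14.3 against 7.78 CPM for Ifi35 in the library labelled Smad3 homozygote against WT.

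Genes that present antigen on MHC class I were lower for 13 of 25 and higher for 5, with a median log2 ratio of -1.04. Psmb9 and Psmb8, subunits of the interferon-induced immunoproteasome, were at 0.0444 against 21.5 CPM for Psmb9 and 1.95 against 53.6 CPM for Psmb8 in the library labelled Smad3 homozygote against WT. Psmb9 had 1 count in the library labelled Smad3 homozygote, 484-fold (86 to 19193) lower. Psmb6, the constitutive counterpart of Psmb9, had 153 CPM in the library labelled Smad3 homozygote and 65 CPM in WT, 2.35-fold (2.17 to 2.55) higher. B2m, the light chain of class I molecules, had 199 CPM in the library labelled Smad3 homozygote, 1156 in the double heterozygote, 1302 to 1925 in the other 3 libraries and 2209 in WT. Its fold was 11.1-fold (10.8 to 11.5) lower. The peptide transporter Tap1 was 4.29-fold (3.56 to 5.18) lower and Nlrc5, the activator of class I genes, 13.3-fold (8.3 to 22.5) lower. Those higher included Calr (calreticulin), a chaperone of the endoplasmic reticulum, at 1549 CPM in the library labelled Smad3 homozygote and 311 CPM in WT.

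Secreted inflammatory factors were lower for 25 of 36 and higher for 1, with a median log2 ratio of -2.54. Il1b, the inflammatory cytokine interleukin-1 beta, had 0 counts in the library labelled Smad3 homozygote, against 14.6 CPM in the double heterozygote, 0.589 to 6.57 CPM in the other 3 libraries and 7.61 CPM in WT, at least 57.1-fold lower than in WT. Ccl5, a chemokine for T cells, had 0.222 CPM in the library labelled Smad3 homozygote, 409 in the double heterozygote, 19.9 to 65.6 in the other 3 libraries and 65.8 in WT, 296-fold (126 to 915) lower than in WT. Ccl2, the monocyte chemokine, had 79.5 CPM in the library labelled Smad3 homozygote, 2089 in the double heterozygote, 135 to 406 in the other 3 libraries and 324 in WT, 4.07-fold (3.84 to 4.31) lower. Complement C3 was 11.8-fold (9.59 to 14.7) lower than in WT and stood at 2530.4 CPM in the double heterozygote. The neutrophil chemokine genes Cxcl1 and Cxcl5 were not called, at 13.3 against 13.3 CPM for Cxcl1 and 63.7 against 41.2 CPM for Cxcl5 in the library labelled Smad3 homozygote against WT. Il11, a fibroblast cytokine that TGF-beta is known to induce, was the 1 factor higher, at 18.3 CPM in the library labelled Smad3 homozygote, 1.75 in the double heterozygote, 0.147 to 2.42 in the other 3 libraries and 0.265 in WT. Its fold was 69.1-fold (23.5 to 337) from 3 counts in WT.

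Of 35 NF-kB and innate sensing genes, 5 were higher and 12 lower, beside 25.4% of all compared genes in each direction. Their median log2 ratio was -0.49, but 0.53 with 14 higher and 8 lower when all uniquely placed reads stood for the library size. Widened intervals left 0 higher and 5 lower. The sensors Tlr3 and Tlr2, of double-stranded RNA and of bacterial lipoproteins, were 17.5-fold (11.7 to 27.4) and 8.63-fold (6.73 to 11.2) lower. The inflammasome gene Casp1 was 54.4-fold (18 to 269) lower from 3 counts. The NF-kB subunits Nfkb1, Nfkb2 and Relb and the inhibitor Nfkbia were higher than in WT, and lower than in the double heterozygote. Nfkbia had 35.8 CPM in the library labelled Smad3 homozygote, 366 in the double heterozygote, 5.6 to 8.07 in the other 3 libraries and 8.67 in WT. Relb had 19.1 CPM in the library labelled Smad3 homozygote, 97.3 in the double heterozygote, 3.98 to 5.91 in the other 3 libraries and 6.37 in WT. Rela, the main activating subunit, was not called, at 60.3 CPM in the library labelled Smad3 homozygote and 52.2 CPM in WT.

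Macrophage and leukocyte markers were low beside the interferon-stimulated, class I and inflammatory factor lists. All 27 measured of 29 listed were lower and the library labelled Smad3 homozygote was the lowest of the 6 for each, with a median log2 ratio of -5.56, or -5.42 with the gene at 0 counts at its bound. Their summed level was 85.5 CPM in the library labelled Smad3 homozygote, 2274 CPM in the double heterozygote, 2019 to 2988 CPM in the other 3 libraries and 3159 CPM in WT. Lyz1 was at 0 in the library labelled Smad3 homozygote, and the defining markers Emr1 (F4/80), Csf1r and Ptprc (CD45) were near it, at 2.4, 5.95 and 0.933 CPM, against 114, 62.5 and 30.9 CPM in WT. Fewer cells of a type and less RNA per cell cannot be told apart in bulk RNA. The part of macrophages in the lower immune genes was not tested. With widened intervals 35 of the 54 interferon-stimulated genes, 16 of the 36 inflammatory factors, 7 of the 25 presentation genes and 26 of the 27 macrophage markers were still lower. When all uniquely placed reads stood for the library size, the median of the class I list was 0.09, above 0.

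**Figure D4:**
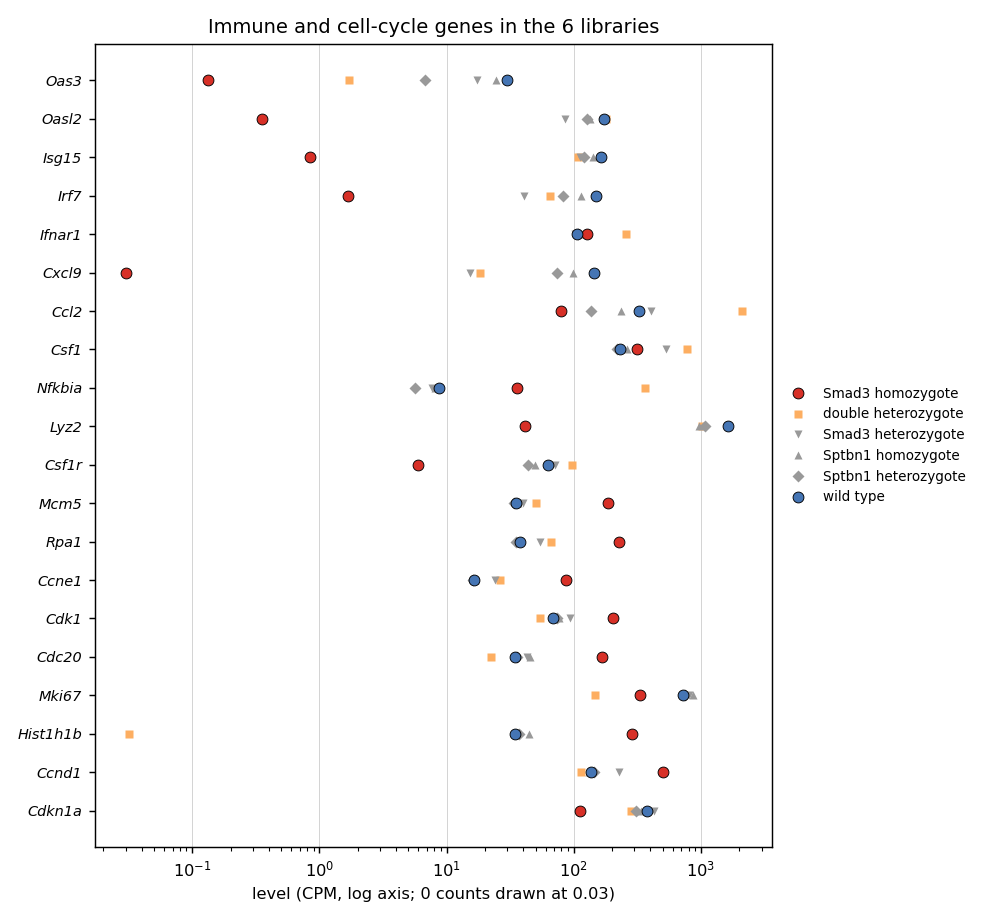
Level (CPM, log axis, 0 counts drawn at 0.03) of named immune, macrophage and cell cycle genes in each of the 6 libraries. For the immune and macrophage genes other than Ifnar1, Csf1 and Nfkbia the library labelled Smad3 homozygote is the lowest of the 6, and for the cell cycle genes other than Mki67 and Cdkn1a it is the highest.

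Genes of DNA replication and of the entry into S phase were mostly higher. Of 52 measured, 37 were higher and 1 lower, with a median log2 ratio of 1.19, and the library labelled Smad3 homozygote was the highest of the 6 for 46. Promoters of Rpa1 and Mcm5 are shown, because E2F factors are known to time this group and both windows hold an E2F site. The windows are chr11:75348384-75348633 on the minus strand for Rpa1 and chr8:75109259-75109508 on the plus strand for Mcm5 (RefSeq, GRCm38.p6), with the site in capitals.
Rpa1: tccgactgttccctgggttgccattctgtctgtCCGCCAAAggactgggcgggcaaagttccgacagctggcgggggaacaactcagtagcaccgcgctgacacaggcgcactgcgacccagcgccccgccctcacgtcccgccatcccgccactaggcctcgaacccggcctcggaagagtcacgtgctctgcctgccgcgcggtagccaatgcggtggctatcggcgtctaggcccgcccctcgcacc
Mcm5: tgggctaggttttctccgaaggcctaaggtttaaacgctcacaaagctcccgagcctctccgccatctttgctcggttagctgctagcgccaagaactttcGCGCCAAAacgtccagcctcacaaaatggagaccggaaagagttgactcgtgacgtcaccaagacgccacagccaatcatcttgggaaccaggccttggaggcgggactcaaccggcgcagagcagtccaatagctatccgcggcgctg

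The forms searched were TTTGGCGC, TTTCCCGC, TTTGGCGG and TTTCCCGG on both strands, which can overlap, and a window counted once. A form was present in 18 of the 43 replication genes with a window (41.9%) and in 6.61% of all genes with one. Rpa1, the large subunit of the protein that coats single-stranded DNA, had 225 CPM in the library labelled Smad3 homozygote, 66.1 in the double heterozygote, 34.9 to 53.8 in the other 3 libraries and 37.5 in WT, 6.0-fold (5.43 to 6.64) higher than in WT. Mcm5, a subunit of the replicative helicase, had 187 CPM in the library labelled Smad3 homozygote, 50.8 in the double heterozygote, 34 to 39.8 in the other 3 libraries and 34.9 in WT. Its partners Mcm2, Mcm3, Mcm4, Mcm6 and Mcm7 were 3.01-fold, 3.08-fold, 2.21-fold, 3.44-fold and 2.24-fold higher. Fen1, the nuclease that trims Okazaki fragments, was 5.8-fold (4.99 to 6.79) higher, Pold1, the catalytic subunit of polymerase delta, 5.49-fold (4.61 to 6.58) higher and cyclin E2, Ccne2, 5.65-fold (4.67 to 6.88) higher. Pcna, the sliding clamp, had 62.8 CPM in the library labelled Smad3 homozygote and 18 CPM in WT, with 19.1% of its sequence shared with other genes. Rrm1 and Rrm2, the ribonucleotide reductase subunits, were higher by 2.0-fold and 2.27-fold. Of the E2F genes, E2f1 was not called, at 16.3 CPM in the library labelled Smad3 homozygote and 27.1 CPM in WT. E2f2, also an activating E2F, was the 1 lower member of the list, at 2.27 CPM in the library labelled Smad3 homozygote and 7.08 CPM in WT.

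Mitotic genes were higher for 34 of 54 and lower for 1, with a median log2 ratio of 0.84. Set against the double heterozygote, 54 of them were higher. Ect2 and Cdk1 are shown for the elements that the late cell cycle genes are known to share, the cell cycle homology region (CHR, TTTGAA or TTTAAA) and the CCAAT box. Their windows are chr3:27153879-27154128 and chr10:69352913-69353162, both on the minus strand (RefSeq, GRCm38.p6), with both elements in capitals on either strand.
Ect2: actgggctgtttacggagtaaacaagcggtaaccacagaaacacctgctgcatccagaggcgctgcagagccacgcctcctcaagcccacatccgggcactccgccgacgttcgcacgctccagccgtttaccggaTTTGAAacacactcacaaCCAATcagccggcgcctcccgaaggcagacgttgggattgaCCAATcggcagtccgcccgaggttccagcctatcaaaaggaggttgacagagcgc
Cdk1: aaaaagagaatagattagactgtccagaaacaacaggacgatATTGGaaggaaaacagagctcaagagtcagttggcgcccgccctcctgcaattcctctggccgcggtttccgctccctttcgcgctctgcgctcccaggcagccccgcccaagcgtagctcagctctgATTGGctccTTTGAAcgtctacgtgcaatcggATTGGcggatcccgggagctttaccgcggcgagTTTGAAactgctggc

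A CHR was present in 36 of the 46 mitotic genes with a window (78.3%) and in 22.9% of all genes with one, and a CCAAT box in 34 of the 46 (73.9%) and in 43.0%. A CHR and a CCAAT box next to each other can share a letter, and each window was counted once per element. Ect2, which sets the site of the cleavage furrow, had 158 CPM in the library labelled Smad3 homozygote, 25.8 in the double heterozygote, 51.7 to 63.3 in the other 3 libraries and 50.4 in WT, 3.13-fold (2.86 to 3.42) higher than in WT. Cdk1, the kinase that drives mitosis, had 205 CPM in the library labelled Smad3 homozygote, 54.4 in the double heterozygote, 73.5 to 92.5 in the other 3 libraries and 68.8 in WT, 2.97-fold (2.76 to 3.21) higher. Kif20a, a kinesin of the midzone, was 4.87-fold (4.47 to 5.33) higher, and Aurka, a kinase of the spindle poles, 3.05-fold (2.75 to 3.38) higher. The cyclin gene Ccnb1 had 75.3 CPM in the library labelled Smad3 homozygote and 3.63 CPM in WT, with 23.4% of its sequence shared, and its relative Ccnb2 had 107 CPM in the library labelled Smad3 homozygote and 46.4 CPM in WT. Mki67, the gene of the proliferation antigen Ki-67, went the other way. It had 335 CPM in the library labelled Smad3 homozygote, 148 in the double heterozygote, 753 to 864 in the other 3 libraries and 718 in WT, 2.15-fold (2.08 to 2.21) lower than in WT. Foxm1, the factor that drives the mitotic genes, was not called, at 80.7 CPM in the library labelled Smad3 homozygote and 103 CPM in WT. These calls rest on differences near 2-fold. With widened intervals 0 replication genes and 1 mitotic gene were higher, and with the spread of the 4 libraries other than the Smad3 homozygote and the double heterozygote, 21 and 11.

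Regulators of the G1 phase and of p53 moved in both directions. Of 38, 19 were higher and 8 lower. The kinase inhibitor Cdkn1a (p21), a target of p53 and of TGF-beta, had 112 CPM in the library labelled Smad3 homozygote, 284 in the double heterozygote, 309 to 427 in the other 3 libraries and 377 in WT, 3.36-fold (3.2 to 3.53) lower than in WT. Trp53 itself was 2.63-fold (2.44 to 2.84) lower and the retinoblastoma gene Rb1 2.71-fold (2.38 to 3.09) lower. Cyclin D1, Ccnd1, had 503 CPM in the library labelled Smad3 homozygote, 113 in the double heterozygote, 133 to 226 in the other 3 libraries and 136 in WT, 3.69-fold (3.5 to 3.89) higher. Cdk4 and Cdk2 were 1.91-fold (1.83 to 2.0) and 2.92-fold (2.56 to 3.35) higher. Other targets of p53 were higher, among them the pro-apoptotic genes Bbc3 (Puma), at 8.79-fold (4.93 to 17.3), and Pmaip1 (Noxa), at 4.41-fold (3.5 to 5.63). Mdm2, which degrades p53, was not called, at 191 CPM in the library labelled Smad3 homozygote and 196 CPM in WT. Cdkn2a, which encodes the inhibitors p16 and p19Arf, had 5.02 CPM in the library labelled Smad3 homozygote, 18.7 in the double heterozygote, 0.589 to 1.26 in the other 3 libraries and 0.531 in WT, higher than in WT and lower than in the double heterozygote. Cdkn2b, another TGF-beta-induced inhibitor, was not called, at 34.3 CPM in the library labelled Smad3 homozygote and 26 CPM in WT.

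Of the 49 gene lists, the histone list had the largest share called higher. Of 48 replication-dependent histone genes and their factors, 46 were higher and 0 lower, with a median log2 ratio of 4.01. Hist1h1b, a linker histone gene, had 286 CPM in the library labelled Smad3 homozygote, 0.0318 in the double heterozygote, 35.9 to 44.4 in the other 3 libraries and 34.5 in WT. Hist2h2bb, a histone H2B gene, had 626 CPM in the library labelled Smad3 homozygote, 0.573 in the double heterozygote, 5.91 to 9.13 in the other 3 libraries and 8.32 in WT. For both genes the library labelled Smad3 homozygote was the highest and the double heterozygote the lowest, although these 2 libraries share the low no-gene share. Messages of this class end without a poly(A) tail, and the sources used here do not say how RNA was selected. Slbp, the protein that binds the end of histone messages and is itself polyadenylated, was 2.22-fold (1.95 to 2.53) higher. Histone genes are near-identical copies of each other, with 93.9% of the sequence of Hist1h3h and 45.8% of that of Hist1h4h shared. Reads from the shared parts can be missing from their levels, and the part of this in the folds was not tested. Of 29 small structural and nuclear non-coding RNA genes, a list that also holds long RNAs such as Malat1, 9 were higher and 11 lower. A poly(A) kit can lose the short transcripts among them. Without the structural RNA and histone genes, a group that here takes in Malat1, 19 members remained, 3 of them higher and 7 lower. The extremes of the full list lay far apart. Rn7sk, the 7SK RNA that restrains transcription elongation, had 4153 CPM in the library labelled Smad3 homozygote, 0.605 in the double heterozygote, 18 to 74.4 in the other 3 libraries and 23.6 in WT. Rmrp, the RNA of RNase MRP, had 2482 CPM in the library labelled Smad3 homozygote, 0.255 in the double heterozygote, 14.2 to 23.8 in the other 3 libraries and 12.3 in WT. The library labelled Smad3 homozygote was far above the other 5 in both, and the double heterozygote the lowest. Rn18s, the 18S ribosomal RNA, had 349 CPM in the library labelled Smad3 homozygote, 1529 in the double heterozygote, 75183 to 87248 in the other 3 libraries and 64661 in WT. Malat1, a long RNA kept in the nucleus, had 4473 CPM in the library labelled Smad3 homozygote, 335 in the double heterozygote, 30717 to 36898 in the other 3 libraries and 38532 in WT. In both the library labelled Smad3 homozygote and the double heterozygote lay below the other 4. The summed level of the list was 18031 CPM in the library labelled Smad3 homozygote, 8078 CPM in the double heterozygote, 111205 to 127439 CPM in the other 3 libraries and 106293 CPM in WT. The part of RNA preparation in these differences and in those of the histone genes was not tested. Widened intervals left 33 of the 48 histone genes higher.

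DNA repair genes were higher for 16 of 40 and lower for 1. Fanca and Fancb, of the Fanconi anaemia complex for crosslink repair, were 7.31-fold (5.68 to 9.55) and 3.74-fold (2.93 to 4.82) higher, and Parp1, a sensor of strand breaks, 2.69-fold (2.49 to 2.91) higher. Brca1, of homologous recombination, was not called, at 53.7 CPM in the library labelled Smad3 homozygote and 41.8 CPM in WT. Genes of ribosome assembly and nucleotide synthesis, known targets of MYC, were higher for 26 of 36 and lower for 3, with a median log2 ratio of 1.20. Gart, an enzyme of purine synthesis, had 196 CPM in the library labelled Smad3 homozygote, 55.5 in the double heterozygote, 26.3 to 31.7 in the other 3 libraries and 25.4 in WT, 7.72-fold (6.85 to 8.73) higher. Cad, which starts pyrimidine synthesis, was 3.76-fold (3.48 to 4.07) higher. Rrp12, of ribosome export, and Polr1b, of RNA polymerase I, were 5.08-fold (4.33 to 6.0) and 5.05-fold (4.28 to 5.99) higher. Myc was among those lower, at 39 CPM in the library labelled Smad3 homozygote and 72 CPM in WT, and so were its partner Max, by 3.1-fold (2.86 to 3.37), and the nucleolar protein Ncl, by 2.03-fold (1.97 to 2.09). Cytosolic ribosomal protein genes were higher for 39 of 63 and lower for 4. Rplp0, of the stalk, had 416 CPM in the library labelled Smad3 homozygote, 382 in the double heterozygote, 87 to 120.0 in the other 3 libraries and 95.4 in WT, with the double heterozygote also above WT. Most genes of this class have processed copies elsewhere in the genome. Counted with widened intervals, 2 of the MYC target genes, 5 of the ribosomal protein genes and 0 of the repair genes were higher.

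Of the TGF-beta ligands, receptors and latency proteins, 7 of 28 were higher and 12 lower, with a median log2 ratio of -0.43. The direction turned when all uniquely placed reads stood for the library size, with a median of 0.54, 11 higher and 3 lower, and widened intervals left 1 higher and 1 lower. Among the ligands, Tgfb1 had 12.5 CPM in the library labelled Smad3 homozygote, 84.1 in the double heterozygote, 41.1 to 46.6 in the other 3 libraries and 47 in WT, 3.75-fold (3.24 to 4.35) lower than in WT. Tgfb2 was 1.9-fold (1.72 to 2.09) lower, and Tgfb3 was not called, at 191 CPM in the library labelled Smad3 homozygote and 264 CPM in WT. Inhba, the subunit of activin A, had 53.3 CPM in the library labelled Smad3 homozygote, 36.5 in the double heterozygote, 398 to 495 in the other 3 libraries and 485 in WT, 9.08-fold (8.53 to 9.68) lower. The activin antagonist follistatin, Fst, had 152 CPM in the library labelled Smad3 homozygote, 31.9 in the double heterozygote, 9.42 to 35.4 in the other 3 libraries and 11.9 in WT, 12.8-fold (10.7 to 15.3) higher. For Inhba the double heterozygote lay close to the library labelled Smad3 homozygote, while for Fst the library labelled Smad3 homozygote stood above the other 5. Of the receptors, Tgfbr2, which binds the ligand, had 149 CPM in the library labelled Smad3 homozygote, 433 in the double heterozygote, 229 to 428 in the other 3 libraries and 372 in WT, 2.5-fold (2.39 to 2.62) lower. Tgfbr1, the kinase that phosphorylates Smad3, was not called, at 156 CPM in the library labelled Smad3 homozygote and 132 CPM in WT. The co-receptor Tgfbr3 (betaglycan) and the activin receptor Acvr2a were 2.76-fold (2.62 to 2.91) and 3.99-fold (3.68 to 4.32) lower. Ltbp1, which stores latent TGF-beta in the matrix, had 1122 CPM in the library labelled Smad3 homozygote, 289 in the double heterozygote, 208 to 543 in the other 3 libraries and 275 in WT, 4.08-fold (3.93 to 4.23) higher, while Ltbp2 was 2.88-fold (2.77 to 3.0) lower. The integrin chains Itgav and Itgb5, part of a receptor that can release the latent ligand, were 1.75-fold and 1.82-fold higher.

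Known targets of TGF-beta and Smad3 were split. Of 41, 9 were higher, 22 lower and 10 not called, with a median log2 ratio of -0.74. The list is mixed, since TGF-beta is known to raise some members and to lower others. The higher members included genes of contraction. Tagln (SM22), a calponin-like protein of smooth muscle, had 1769 CPM in the library labelled Smad3 homozygote, 358 in the double heterozygote, 220.4 to 262 in the other 3 libraries and 229.7 in WT, 7.7-fold (7.4 to 8.02) higher than in WT. Acta2, smooth muscle actin, had 3141 CPM in the library labelled Smad3 homozygote, 1189 in the double heterozygote, 2194 to 2975 in the other 3 libraries and 1799 in WT, 1.75-fold (1.72 to 1.77) higher. The lower members included matrix genes and their receptors. Itga11, a collagen receptor, had 10.8 CPM in the library labelled Smad3 homozygote, 123 in the double heterozygote, 79.5 to 397 in the other 3 libraries and 367 in WT. The matrix protein Postn had 515 CPM in the library labelled Smad3 homozygote, 3389 in the double heterozygote, 2577 to 5506 in the other 3 libraries and 5221 in WT. For Itga11 and Postn the library labelled Smad3 homozygote was the lowest of the 6. Timp3, an inhibitor of metalloproteinases, had 434 CPM in the library labelled Smad3 homozygote, 542 in the double heterozygote, 1014 to 2740.1 in the other 3 libraries and 2016 in WT, 4.64-fold (4.53 to 4.75) lower. Adam12 and Lox, which cross-links collagen, were 2.87-fold (2.76 to 2.98) and 2.56-fold (2.52 to 2.6) lower. Ctgf and Cyr61, matricellular targets of both TGF-beta and YAP, were not called, at 543 against 737 CPM for Ctgf and 576 against 588 CPM for Cyr61 in the library labelled Smad3 homozygote against WT. The SMAD-binding letters (CAGACA or GTCTAGAC, both strands, counted once per window) were present in 7 of the 24 targets with a window (29.2%) and in 19.2% of all genes with one. When all uniquely placed reads stood for the library size, the median log2 ratio of the targets was 0.28, with 14 higher and 10 lower. Under widened intervals 2 were higher and 2 lower. Over the 12 targets with transcripts of middle length and GC content, 5 were higher and 4 lower, with a median log2 ratio of -0.0012. With the Smad3 heterozygote in place of WT, the median over all targets was -0.23.

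BMP and activin genes were higher for 7 and lower for 7 of 29, close to the 25.4% of all compared genes in each direction. The inhibitor of DNA binding Id1, a direct BMP target, had 65.9 CPM in the library labelled Smad3 homozygote, 13.4 in the double heterozygote, 10.2 to 28.4 in the other 3 libraries and 12.3 in WT, 5.36-fold (4.5 to 6.43) higher. Id2 was 2.27-fold (2.01 to 2.57) higher, while Id3 was not called, at 153 CPM in the library labelled Smad3 homozygote and 97.4 CPM in WT. Bmpr2, a BMP receptor, had 48.8 CPM in the library labelled Smad3 homozygote, 110.1 in the double heterozygote, 203 to 249 in the other 3 libraries and 245 in WT, 5.03-fold (4.69 to 5.4) lower. The ligand Bmp4 was not called, at 19.9 CPM in the library labelled Smad3 homozygote and 26.5 CPM in WT, and the antagonist Grem1 had 184 CPM in the library labelled Smad3 homozygote and 195 CPM in WT, also not called.

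Contractile and actin genes were higher for 14 of 30 and lower for 5, with a median log2 ratio of 0.57. Set against the double heterozygote, 22 were higher. Cnn1 (calponin) had 183 CPM in the library labelled Smad3 homozygote, 34.2 in the double heterozygote, 60.1 to 142 in the other 3 libraries and 55.5 in WT, 3.29-fold (3.02 to 3.58) higher. Myh11, the heavy chain of smooth muscle myosin, was 2.41-fold (2.16 to 2.7) higher. Flna (filamin A) had 4351 CPM in the library labelled Smad3 homozygote and 1682 CPM in WT, and Lmna, the lamin A gene, had 1237 CPM in the library labelled Smad3 homozygote and 259 CPM in WT. Srf, the factor that drives these genes, was 1.82-fold (1.68 to 1.98) higher, whereas its coactivators Mkl1 and Mkl2 were 1.65-fold (1.51 to 1.81) and 3.82-fold (3.5 to 4.17) lower. Mylk, the myosin light chain kinase, was 2.99-fold (2.75 to 3.24) lower. Of 36 Hippo pathway and YAP target genes, 11 were higher and 6 lower, beside 25.4% of all compared genes in each direction. The coactivator Yap1 had 333 CPM in the library labelled Smad3 homozygote, 315 in the double heterozygote, 166 to 179 in the other 3 libraries and 158 in WT, 2.11-fold (2.0 to 2.22) higher. The target Ankrd1 was 5.33-fold (4.83 to 5.89) higher. The TEAD factors, through which YAP binds DNA, differed among themselves. Tead1 had 141 CPM in the library labelled Smad3 homozygote, 449 in the double heterozygote, 1083 to 1262 in the other 3 libraries and 1111 in WT, 7.85-fold (7.55 to 8.17) lower than in WT. Tead2 had 187 CPM in the library labelled Smad3 homozygote, 92.7 in the double heterozygote, 30.4 to 33.9 in the other 3 libraries and 31.2 in WT, 6.0-fold (5.38 to 6.7) higher. Tead4 was 5.24-fold (3.64 to 7.79) higher. For Tead1 and Tead2 the double heterozygote lay between the library labelled Smad3 homozygote and WT. Widened intervals left 1 contractile gene and 1 Hippo gene higher.

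**Figure D5:**
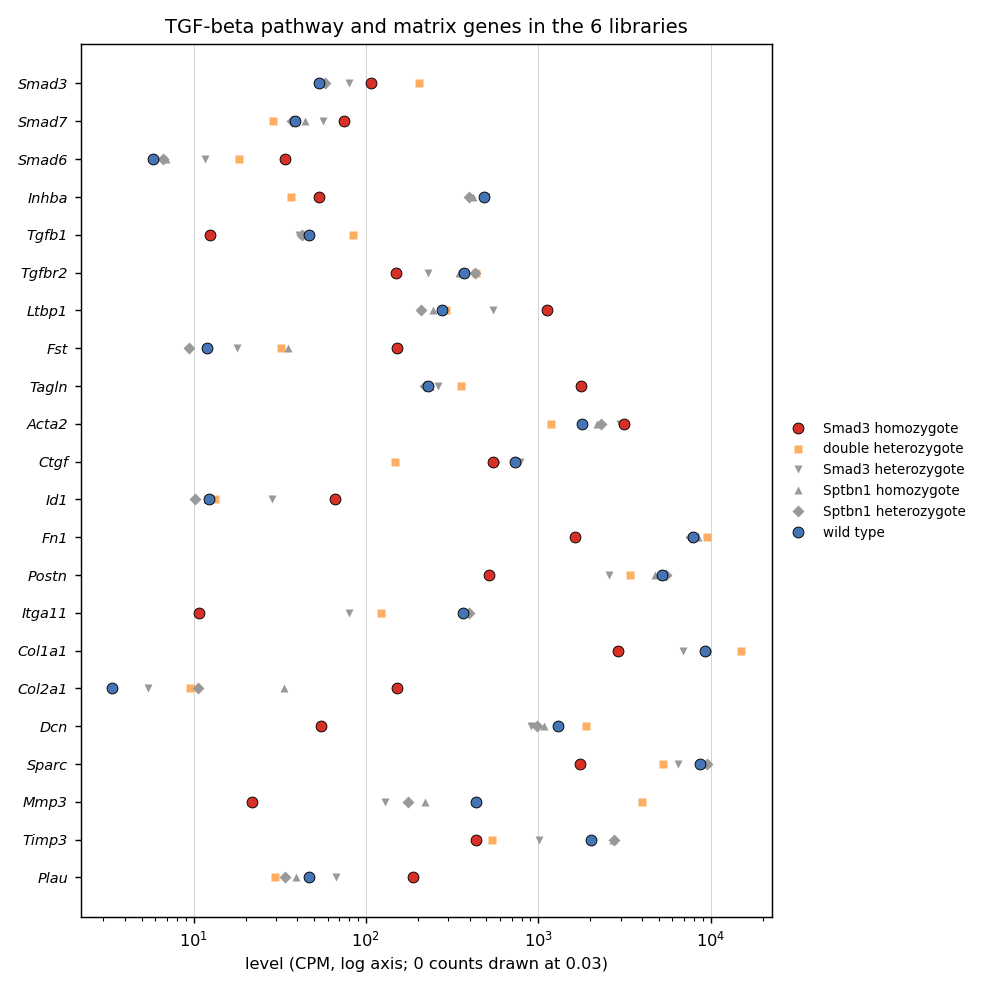
Level (CPM, log axis) of named TGF-beta pathway, target and matrix genes in each of the 6 libraries. Tagln and Fst are highest in the library labelled Smad3 homozygote, and Fn1, Postn, Itga11, Dcn and Sparc are lowest there.

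Fibrillar collagens and the enzymes that process them were higher for 8 and lower for 11 of 30, beside 25.4% of all compared genes in each direction. Col1a1, the main chain of type I collagen, had 2896 CPM in the library labelled Smad3 homozygote, 14982 in the double heterozygote, 6903 to 9533 in the other 3 libraries and 9319 in WT, 3.22-fold (3.19 to 3.25) lower than in WT. Its partner chain Col1a2 was 1.54-fold (1.52 to 1.55) lower. Col3a1 was not called, at 3341 CPM in the library labelled Smad3 homozygote and 4467 CPM in WT. Col2a1, the collagen of cartilage, had 151 CPM in the library labelled Smad3 homozygote, 9.55 in the double heterozygote, 5.43 to 33.5 in the other 3 libraries and 3.36 in WT, 44.9-fold (32.7 to 63.6) higher. Serpinh1, the collagen chaperone, and P4hb, a subunit of the proline hydroxylase, were 2.8-fold (2.74 to 2.87) and 5.03-fold (4.86 to 5.21) higher. Among the other collagens, with 8 higher and 7 lower of 20, the basement membrane chain Col4a1 had 1537 CPM in the library labelled Smad3 homozygote, 2076 in the double heterozygote, 322 to 508 in the other 3 libraries and 497 in WT, 3.09-fold (3.01 to 3.18) higher. Col12a1, which sits on fibril surfaces, had 889 CPM in the library labelled Smad3 homozygote, 2060.3 in the double heterozygote, 5264 to 6122 in the other 3 libraries and 5995 in WT, 6.74-fold (6.64 to 6.85) lower.

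Elastic fibre, glycoprotein and proteoglycan genes were lower for 21 of 39 and higher for 5, with a median log2 ratio of -0.74. Set against the double heterozygote, 30 were lower. Dcn (decorin), a proteoglycan that binds collagen and TGF-beta, had 55.2 CPM in the library labelled Smad3 homozygote, 1885 in the double heterozygote, 903 to 1075 in the other 3 libraries and 1301 in WT, 23.6-fold (22.3 to 25) lower than in WT. Mfap4, of elastic microfibrils, had 14.5 CPM in the library labelled Smad3 homozygote, 581 in the double heterozygote, 123 to 835 in the other 3 libraries and 802 in WT, 55.2-fold (49.5 to 61.9) lower. Sparc, a collagen-binding glycoprotein, had 1735 CPM in the library labelled Smad3 homozygote, 5272 in the double heterozygote, 6474 to 9566 in the other 3 libraries and 8667 in WT. Fibronectin, Fn1, had 1633 CPM in the library labelled Smad3 homozygote, 9501 in the double heterozygote, 7654 to 8412 in the other 3 libraries and 7913 in WT. In all 4 genes the library labelled Smad3 homozygote was the lowest of the 6. Thbs1, Fbln2 and Fbln5 were not called, at 7203 against 7299.7 CPM for Thbs1, 2501 against 2477 CPM for Fbln2 and 243 against 240.4 CPM for Fbln5 in the library labelled Smad3 homozygote against WT. Efemp1 (fibulin-3) was 6.92-fold (5.99 to 8.04) higher and the hyaluronan synthase Has2 2.74-fold (2.6 to 2.89) higher. Under the library size from all uniquely placed reads the list had a median log2 ratio of 0.28, with 12 higher and 12 lower, and with widened intervals 0 were higher and 4 lower.

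Of 28 metalloproteinase, plasminogen and inhibitor genes, 21 were lower and 2 higher, with a median log2 ratio of -1.24. Mmp3 (stromelysin) had 21.9 CPM in the library labelled Smad3 homozygote, 4012 in the double heterozygote, 129.8 to 219 in the other 3 libraries and 436 in WT, 20.0-fold (18.2 to 21.9) lower than in WT. Mmp13, a collagenase, was 89.4-fold (70.5 to 115) lower. Mmp9 and Mmp12, which macrophages are known to make, were 342-fold (173 to 794) and 127-fold (63.9 to 296) lower. Mmp2 and its activator Mmp14 were 3.78-fold (3.62 to 3.95) and 1.9-fold (1.84 to 1.96) lower. The 2 members higher were Plau, the urokinase plasminogen activator, and its receptor Plaur. Plau had 188 CPM in the library labelled Smad3 homozygote, 29.7 in the double heterozygote, 33.7 to 67.4 in the other 3 libraries and 46.9 in WT. Plaur was 3.76-fold (3.32 to 4.28) higher. With widened intervals 5 metalloproteinase genes were lower. Of 17 integrin genes, 4 were higher and 7 lower, beside 25.4% of all compared genes in each direction. The laminin receptor chains Itga6 and Itga3 were 5.27-fold (4.72 to 5.91) and 9.15-fold (7.11 to 12) higher. The collagen receptor chain Itga1 was 3.56-fold (3.1 to 4.09) lower and Itga4 3.11-fold (2.65 to 3.66) lower, and the common chain Itgb1 was not called, at 1939.6 CPM in the library labelled Smad3 homozygote and 1544 CPM in WT.

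Both libraries held the transcripts of fibroblasts. Vim had 5203 CPM in the library labelled Smad3 homozygote and 2362 CPM in WT, and Prrx1, a homeobox gene of mesenchyme, had 519 CPM in the library labelled Smad3 homozygote and 1120.2 CPM in WT. Within the 22 fibroblast markers 3 were higher and 14 lower, with a median log2 ratio of -0.91. Thy1, a surface marker, had 197 CPM in the library labelled Smad3 homozygote, 395 in the double heterozygote, 933 to 1322 in the other 3 libraries and 1014 in WT. Pdgfra, a receptor for PDGF, had 319 CPM in the library labelled Smad3 homozygote, 1739.6 in the double heterozygote, 498 to 596 in the other 3 libraries and 571 in WT. Dpt, a dermal matrix protein, was 33.4-fold (24.4 to 46.7) lower. Their summed level was 21428 CPM in the library labelled Smad3 homozygote, 53146 CPM in the double heterozygote, 23299 to 32916 CPM in the other 3 libraries and 31315 CPM in WT. The part of the mix of cells in the lower matrix genes was not tested. Markers of other cell types were also measured, and those under 1 CPM in both libraries were left out. Of 21 epithelial markers 7 were measured, 6 of them higher and 0 lower. With no filter on low counts, 6 were higher and 1 lower of 20, and the median log2 ratio was 0.26 in place of 2.99. The keratin Krt18 had 31.4 CPM in the library labelled Smad3 homozygote, 1.85 in the double heterozygote, 2.71 to 4.33 in the other 3 libraries and 3.89 in WT. Krt19 was 13.5-fold (9.16 to 20.9) higher. Cdh1, the defining epithelial cadherin, was not called, at 1.02 CPM in the library labelled Smad3 homozygote and 2.57 CPM in WT. Of 28 skeletal and cardiac muscle markers 17 were measured, 9 of them higher and 1 lower. With no filter on low counts, 9 were higher and 1 lower of 27, and the median log2 ratio was 1.33 in place of 1.65. The muscle regulator Myod1, left out by the filter, had 0.444 CPM in the library labelled Smad3 homozygote and 0.354 CPM in WT. Acta1 had 35 CPM in the library labelled Smad3 homozygote, 3.63 in the double heterozygote, 2.8 to 46.9 in the other 3 libraries and 2.83 in WT. Another, Myog, had 2.35 CPM in the library labelled Smad3 homozygote and 0 counts in WT, at least 8.87-fold higher. Myog passed the filter only through the library where it is high. Neural, neural crest and glial markers were lower for 12 of 21 and higher for 5, with a summed level of 1029 CPM in the library labelled Smad3 homozygote and 917 CPM in WT. Sox10, of neural crest and Schwann cells, had 0.489 CPM in the library labelled Smad3 homozygote, 1.82 in the double heterozygote, 4.65 to 16.5 in the other 3 libraries and 19.7 in WT. Gfap, of glia, had 0 counts in the library labelled Smad3 homozygote and 20.2 CPM in WT, at least 151-fold lower. Nes and Tubb3, which are not confined to neurons, were 3.16-fold (2.99 to 3.35) and 3.78-fold (3.3 to 4.35) higher. Endothelial and pericyte markers were higher for 2 and lower for 6 of 15, with the defining genes Cdh5 and Vwf at 0.133 against 1.59 CPM for Cdh5 and 0.0444 against 1.06 CPM for Vwf in the library labelled Smad3 homozygote against WT. Cartilage and bone markers were higher for 2 and lower for 3 of 14, with a summed level of 1458 CPM in the library labelled Smad3 homozygote and 935 CPM in WT. Runx2, the regulator of bone formation, had 11.6 CPM in the library labelled Smad3 homozygote, 29.4 in the double heterozygote, 125 to 174 in the other 3 libraries and 143 in WT. Mesothelium, gonad and visceral mesenchyme markers were higher for 5 and lower for 5 of 20, close to the share over all genes, with levels of 6.8 against 17.1 CPM for Wt1 and 20.2 against 4.78 CPM for Msln in the library labelled Smad3 homozygote against WT. Of 4 blood markers 3 were lower, with Alas2 at 0 counts in the library labelled Smad3 homozygote.

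Nuclear genes of oxidative phosphorylation were higher for 31 of 63 and lower for 2, with a median log2 ratio of 0.79, and the library labelled Smad3 homozygote was the highest of the 6 for 48 of them. Sdhd, the membrane anchor of succinate dehydrogenase, had 133 CPM in the library labelled Smad3 homozygote, 30.4 in the double heterozygote, 4.93 to 7.85 in the other 3 libraries and 6.72 in WT, 19.8-fold (15.8 to 25.2) higher than in WT. The complex III core subunit Uqcrc1 was 4.47-fold (4.12 to 4.85) higher, and the ATP synthase chain Atp5a1 had 1118 CPM in the library labelled Smad3 homozygote, 539 in the double heterozygote, 329.6 to 387 in the other 3 libraries and 368 in WT, 3.03-fold (2.94 to 3.14) higher. Of 36 glycolysis and hypoxia genes, 10 were higher and 12 lower, beside 25.4% of all compared genes in each direction. The glycolytic enzymes Tpi1 and Aldoa were 8.17-fold (7.5 to 8.92) and 1.77-fold (1.72 to 1.82) higher. Genes that hypoxia is known to induce were among those lower. Vegfa, the vessel growth factor, had 91.7 CPM in the library labelled Smad3 homozygote, 241 in the double heterozygote, 188 to 301 in the other 3 libraries and 251 in WT, 2.74-fold (2.59 to 2.9) lower. Bnip3, of mitochondrial clearance, was 2.94-fold (2.64 to 3.27) lower, with 36.9% of its sequence shared with other genes. Pfkfb3, a driver of glycolysis, was 3.08-fold (2.76 to 3.43) lower. Hif1a itself was not called, at 431 CPM in the library labelled Smad3 homozygote and 556 CPM in WT. Its relative Epas1 had 1.29 CPM in the library labelled Smad3 homozygote, 141 in the double heterozygote, 11.2 to 14.1 in the other 3 libraries and 14.2 in WT, 11.1-fold (7.41 to 17) lower. Under widened intervals 2 oxidative phosphorylation genes were higher.

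Cholesterol and fatty acid synthesis genes were higher for 21 of 36 and lower for 3, with a median log2 ratio of 0.84. Fasn, fatty acid synthase, had 639 CPM in the library labelled Smad3 homozygote, 250.4 in the double heterozygote, 218 to 387 in the other 3 libraries and 237 in WT, 2.69-fold (2.58 to 2.8) higher than in WT. Acly, which makes cytosolic acetyl-CoA, was 3.87-fold (3.67 to 4.08) higher. The cholesterol exporters Abca1 and Abcg1, known targets of the LXR receptors and abundant in macrophages, were 5.89-fold (5.4 to 6.42) and 3.31-fold (2.72 to 4.04) lower. Under widened intervals 0 genes of the list were higher. The adipocyte and lipid uptake list had 5 higher and 4 lower of 20, near the 25.4% of all compared genes in each direction. Lipoprotein lipase, Lpl, had 10.9 CPM in the library labelled Smad3 homozygote, 171 in the double heterozygote, 174 to 231 in the other 3 libraries and 242 in WT, 22.1-fold (19.4 to 25.3) lower. Pparg, the regulator of fat cell formation, had 13.8 CPM in the library labelled Smad3 homozygote, 1.15 in the double heterozygote, 1.18 to 5.91 in the other 3 libraries and 1.24 in WT, 11.1-fold (6.53 to 20.6) higher. Targets of NRF2, the regulator of the antioxidant response, included several far above WT. Beside Nqo1, Txnrd1 (thioredoxin reductase) had 551 CPM in the library labelled Smad3 homozygote, 206 in the double heterozygote, 117 to 183 in the other 3 libraries and 117 in WT, 4.73-fold (4.46 to 5.01) higher. The glutathione enzymes Gsr and Gclc were 3.87-fold (3.43 to 4.38) and 2.98-fold (2.53 to 3.53) higher. Hmox1, another known target, was 2.06-fold (1.9 to 2.23) lower and Nfe2l2, the gene of NRF2, was not called, at 121 CPM in the library labelled Smad3 homozygote and 134 CPM in WT. Over the 32 oxidative stress genes 12 were higher and 7 lower. Genes of endoplasmic reticulum stress and of the ATF4 response had 11 higher and 8 lower of 40, near the 25.4% of all compared genes in each direction, and widened intervals left 0 and 0. Hspa5 (BiP) and Atf4 were not called, at 1432 against 1156 CPM for Hspa5 and 268 against 280.3 CPM for Atf4 in the library labelled Smad3 homozygote against WT. The stress factor Ddit3 (CHOP) was 2.34-fold (2.03 to 2.69) lower and the chaperones Hyou1 and Pdia6 were 2.8-fold (2.64 to 2.97) and 3.15-fold (3.02 to 3.3) higher.

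Among growth factor pathways, immediate-early genes were higher for 13 and lower for 6 of 33. Junb, an AP-1 subunit, had 99.4 CPM in the library labelled Smad3 homozygote, 146 in the double heterozygote, 16 to 19.3 in the other 3 libraries and 18.1 in WT. Fosl1, another, was 3.77-fold (2.81 to 5.15) higher. Egr1, a serum-induced factor, was 2.1-fold (1.94 to 2.28) lower and Jun was not called, at 121 CPM in the library labelled Smad3 homozygote and 86.3 CPM in WT. The ERK phosphatases Dusp5 and Dusp6, which ERK signalling induces, were 48.2-fold (20.5 to 149) and 2.9-fold (2.57 to 3.26) higher. Etv4, an ERK-induced factor, had 40.8 CPM in the library labelled Smad3 homozygote, 10.9 in the double heterozygote, 2.06 to 13 in the other 3 libraries and 2.74 in WT, 14.9-fold (10.4 to 22) higher. In the FGF and PDGF list, with 11 higher and 13 lower of 39, the EGF receptor ligands Ereg, Areg and Hbegf were 7.84-fold (6.48 to 9.56), 21.9-fold (7.34 to 108) and 2.75-fold (2.45 to 3.09) higher, with Areg at 3 counts in WT. The receptor Met was 3.98-fold (3.49 to 4.55) higher and Fgfr1 was 1.87-fold (1.79 to 1.97) lower. Of 36 genes of the IGF axis and imprinted growth control, 12 were higher and 15 lower. Igf1, the growth factor, had 11.1 CPM in the library labelled Smad3 homozygote, 115 in the double heterozygote, 139 to 311 in the other 3 libraries and 251 in WT, 22.5-fold (19.8 to 25.7) lower. Igf2 was not called, at 1165 CPM in the library labelled Smad3 homozygote and 1714 CPM in WT. H19, the RNA beside it, had 5663 CPM in the library labelled Smad3 homozygote, 4220.3 in the double heterozygote, 465 to 1856 in the other 3 libraries and 1120.2 in WT, 5.06-fold (4.96 to 5.15) higher.

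Wnt genes were lower for 23 of 48 and higher for 9, with a median log2 ratio of -0.87, or 0.16 under the library size from all uniquely placed reads. Lgr5, a receptor for R-spondins, had 1.07 CPM in the library labelled Smad3 homozygote, 59 in the double heterozygote, 31.3 to 249.7 in the other 3 libraries and 225 in WT, 212-fold (142 to 331) lower. The secreted inhibitors Sfrp4 and Sfrp1 were 63.3-fold (32.9 to 139.8) and 6.76-fold (6.37 to 7.17) lower. The feedback gene Axin2 was 3.94-fold (3.17 to 4.9) lower, and Rspo2, an amplifier of the pathway, had 29.1 CPM in the library labelled Smad3 homozygote, 71 in the double heterozygote, 2.8 to 5.62 in the other 3 libraries and 2.21 in WT, 13.1-fold (8.82 to 20.4) higher. Beta-catenin, Ctnnb1, was not called, at 1207 CPM in the library labelled Smad3 homozygote and 881 CPM in WT. Notch and Hedgehog genes were lower for 7 of 22 and higher for 2. The Notch targets Heyl and Hey1 were 70.5-fold (29.6 to 219.8) and 7.68-fold (4.71 to 13.1) lower. The Hedgehog factor Gli2 was 3.3-fold (2.87 to 3.79) lower, with Ptch1 not called, at 11.9 CPM in the library labelled Smad3 homozygote and 15.2 CPM in WT.

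Hox and patterning genes keep a record of the body region that cells came from. Of 32 Hox genes, 5 were higher and 12 lower. Those higher included genes at the distal end of the HoxA and HoxD clusters, which act in the distal limb. Hoxd13 had 14.9 CPM in the library labelled Smad3 homozygote, 42.3 in the double heterozygote, 0.291 to 0.883 in the other 3 libraries and 4.16 in WT, 3.59-fold (2.64 to 4.98) higher. Hoxa13 had 2.4 CPM in the library labelled Smad3 homozygote, 5.48 in the double heterozygote, 0 to 0.149 in the other 3 libraries and 0.177 in WT, 13.6-fold (3.58 to 115) higher from 2 counts in WT. Hoxa11 was 2.46-fold (1.84 to 3.34) higher. Those lower included Hoxb5, by 8.34-fold (5.44 to 13.2), Hoxc10, by 4.23-fold (3.18 to 5.66), and Hoxc8, by 3.66-fold (3.18 to 4.22). For Hoxd13 and Hoxa13 the double heterozygote was the highest of the 6. Patterning factors were higher for 13 and lower for 12 of 55, near the share over all genes. Msx1, of limb and jaw mesenchyme, had 9.42 CPM in the library labelled Smad3 homozygote, 8.09 in the double heterozygote, 0.0969 to 1.03 in the other 3 libraries and 0.442 in WT. Pitx1, of the hindlimb and jaw, had 12.8 CPM in the library labelled Smad3 homozygote, 9.78 in the double heterozygote, 1.45 to 3.09 in the other 3 libraries and 1.24 in WT. Lhx9, of limb bud and gonad, was 10.6-fold (6.81 to 17.6) higher, and Irx1 was 7.44-fold (6.21 to 8.96) lower. A share of limb or trunk cells that differed between the embryos was not tested. Among regulators of the mesenchymal state, with 6 higher and 9 lower of 20, Snai2 was 4.63-fold (4.13 to 5.18) lower, and Zeb2 was 2.88-fold (2.76 to 3.0) lower. Hmga2, a chromatin protein of embryonic cells, had 513 CPM in the library labelled Smad3 homozygote, 157 in the double heterozygote, 143 to 608 in the other 3 libraries and 185 in WT, 2.77-fold (2.64 to 2.9) higher. Chromatin regulators were higher for 13 and lower for 8 of 33. The demethylase genes Tet1, Tet2 and Kdm6b were 5.6-fold (4.7 to 6.69), 6.94-fold (6.17 to 7.81) and 14.5-fold (12.2 to 17.3) lower. Dnmt1, which copies DNA methylation at replication, and Lmnb1, of the nuclear lamina, were 2.1-fold (1.99 to 2.21) and 3.52-fold (3.16 to 3.93) higher.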

How the data were processed

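RNA was measured by sequencing in 6 libraries of mouse embryonic fibroblasts, 1 per genotype, and the Smad3 homozygote was set against WT. Per the labels' protocols, total RNA was taken with TRIZOL, and 1 ug went into an Illumina TruSeq RNA kit. The authors deposited raw read counts per gene symbol, 1 file per library, unscaled. The build mm9 and the tools TopHat2 2.0.10, HTSeq, Trimmomatic, FastQC and DESeq2 appear in the submitters' processing notes without their roles. Annotation, counting mode and strand setting are not given in the sources used here, so overlapping and antisense genes cannot be told apart. The 5 closing lines of each file (reads on no gene, on several genes and the like) were left out of library sizes.

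Library sizes were scaled with TMM (edgeR 4.0.16, R 4.3.3) over all 6 libraries. Ratios were compared for 14081 genes with at least 1 CPM in either library, with Clopper-Pearson 95% intervals (scipy 1.17.1, Python 3.11.15), which treat reads as independent molecules. Promoters came from RefSeq on GRCm38.p6, whose coordinates do not belong to the mm9 build of the files. Shared 50-base words, transcript length and GC content came from GENCODE vM21 transcripts, matched by gene symbol. The comparison, the 49 gene lists (1618 genes, 1601 found, 1434 compared) and the rule for naming genes were chosen with earlier results of these data known. The rule names the targeted genes and 15 genes in each direction with the largest interval bound on the side of 1-fold. Left out of the 15, by symbol, were predicted genes, pseudogenes marked -ps, microRNA and small RNA genes. In each list the rule names the chosen anchor genes and the 5 higher and 5 lower others of largest bound. The text names those that show each list's range. Alternatives were DESeq2 1.42.0 size factors, total counts, all uniquely placed reads as library size, other filters and thresholds, another library in place of WT, intervals widened by the dispersion of 4 or 6 libraries (edgeR), no histone or structural RNA genes, and, added after the data were seen, genes with under 1% shared sequence and those in the middle range of length and GC content. Coverage by exon, sample swaps and splicing were not analysed here, and a few genes are not reported here.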

Additional observations from a re-analysis of the deposited data

How the results depend on the processing

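Against 3578 genes higher and 3579 lower, the counts were 8093 and 1484 with all uniquely placed reads as the library size, which moves the median log2 ratio of all genes from 0.10 to 1.19. At 2-fold they were 2084 higher and 2644 lower. With intervals widened by the dispersion of the 4 libraries other than the Smad3 homozygote and the double heterozygote they were 1697 and 2509, and by that of all 6 libraries 246 and 1176. Over the 3413 genes in the middle range of length and GC content they were 977 and 712, of fewer genes. The cause of the other shifts was not tested. Under DESeq2 size factors, total counts, other filters, removal of histone and structural RNA genes, each other library in place of WT, and genes with under 1% shared sequence, the counts lay within 1.5 times those given.

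With all uniquely placed reads as library size, the median log2 ratio turned above 0 for 7 lists: 0.28 for the TGF-beta targets, 0.28 for the elastic fibre and proteoglycan genes, 0.35 for the integrins, 0.093 for MHC class I presentation, 0.16 for the Wnt genes, 0.12 for the mesenchymal regulators and 0.16 for the fibroblast markers. The integrin median was 0.24 with the Smad3 heterozygote in place of WT, and the mesenchymal regulators had 0.33 over the 5 members of middle length and GC content. The cause was not tested. Medians nearer 0 than the 1.5-fold limit also changed sign under this or other settings.

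Libraries without replicates limit every result: embryo, preparation and genotype cannot be told apart, and a gene under about 1 CPM rests on few reads. No paired analysis was possible because each genotype has 1 library.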
